A study of Mus musculus with 64 samples.

Results

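Regulatory T (Treg) cells carry on their surface a set of receptors that raise or dampen the response of a T cell to antigen, and 10 genes for such receptors were followed here across the whole series: Ctla4, Cd28, Icos, Pdcd1, Tigit, Lag3, Havcr2, Cd96, Cd226 and Btla. They were chosen by name, as the coinhibitory and costimulatory receptors of T cells, and are 10 of 55809 genes counted in each of 64 bulk RNA-seq libraries from mouse Treg cells. The libraries form 28 groups in 3 experiments. In the first, adult heterozygous female mice carried a Foxp3-AID allele, in which Foxp3, the transcription factor that defines the Treg lineage, is fused to an auxin-inducible degron, with a ZsGreen reporter and Cre made as separate proteins from the same locus. Mice of genotype Foxp3-AID ROSA26-TIR1(F74G) also made the plant ubiquitin ligase TIR1 from a ROSA26 allele opened by that Cre, whereas Foxp3-AID ROSA26-WT mice did not, and all were given 5-ph-IAA, the ligand that lets TIR1 degrade the fusion protein, daily for 7 days. Thymic Treg cells sorted as negative for CD73 and active Treg cells from spleen and lymph nodes were sequenced, with 3 libraries per genotype and tissue. The second experiment gave 5-ph-IAA for 7 days to infant mice with the same alleles, for which the study used hemizygous males, and Treg cells of spleen and lymph nodes were sequenced in 2 groups of 4 libraries. The third used a Foxp3 allele silenced by a loxP-flanked stop cassette (LSL), carried in heterozygous females, in which 4-hydroxytamoxifen restored Foxp3 only where CreERT2 was made under control of Cd4. Cells called Treg wannabe cells in the labels came from spleen and lymph nodes of Foxp3-LSLCD4-CreERT2 mice (plusFoxp3) and Foxp3-LSLCD4-WT mice (minusFoxp3). They were taken untreated (day 0) or 3, 7, 14 or 28 days after 4-hydroxytamoxifen, as resting and as active cells, with 2 libraries per group. The study sorted treated plusFoxp3 cells as positive for the GFP that excision of the cassette allows. The minusFoxp3 cells were GFP-negative and positive for Thy1.1, the reporter of the silenced allele. Resting cells were sorted as CD62L-high and CD44-low, and active cells as CD62L-low and CD44-high. Untreated Foxp3GFP mice gave resting and active Treg cells with an intact Foxp3 gene, also 2 libraries each. In the heterozygous females of the adult degron and the silenced-allele experiments, Treg cells using the other, unmodified Foxp3 allele were still present in the animal.

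The labels of the degron libraries conflict. In the 12 adult libraries the library name in the header of each deposited file gives the other genotype than the sample record it is attached to. The name of each of these deposited files gives the same genotype as its header. The header was followed here, and following the record instead turns the sign of every adult TIR1 effect given below. In the 8 infant libraries the title and the genotype field give opposite genotypes, and the library name in the header goes with the title. The groups carry the names titled TIR1 and titled WT here. Since the genotype field disagrees with both title and header, the labels conflict on the direction of a difference between these groups with respect to degradation. Il2ra, which encodes the IL-2 receptor chain CD25 and is a known target of Foxp3, was used to assign no library. In the silenced-allele experiment it lay between 183 and 333 CPM (the read pairs of a gene scaled to the total of its library) in the 24 libraries without treatment or without CreERT2 and between 375 and 652 CPM in the 16 treated plusFoxp3 libraries. By the header it read 409, 469 and 504 CPM in active WT and 304, 279.7 and 305 CPM in active TIR1 libraries, without overlap, and 353, 429 and 485 against 325, 369.8 and 369 CPM in thymic libraries, with overlap. In infant libraries it read 450.3, 494, 483 and 347 CPM in titled TIR1 and 619.6, 663, 689 and 388 CPM in titled WT libraries, where the first 3 titled WT libraries were above all others and the fourth was not. Within each silenced-allele library the labels fitted the Foxp3 transcript. It lay between 44.3 and 81.5 CPM in the 24 libraries without treatment or without CreERT2. In the 16 treated plusFoxp3 libraries it lay between 426 and 615 CPM, and the GFP sort of those cells set this in advance.

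Coinhibitory and costimulatory receptors act largely in pairs that compete for shared ligands. CD28 delivers the main costimulatory signal on binding CD80 and CD86, while CTLA-4 binds the same ligands more tightly and, on Treg cells, strips them from antigen-presenting cells. ICOS is the related costimulator that binds ICOS ligand. CD226 (activating) and TIGIT and CD96 (mostly inhibitory) share nectin-family ligands such as CD155. PD-1, made from Pdcd1, binds PD-L1 and PD-L2, LAG-3 binds MHC class II, TIM-3, made from Havcr2, binds galectin-9 among other ligands, and BTLA binds HVEM. CTLA-4, ICOS and TIGIT are known to be abundant on Treg cells and to take part in their suppressive function.

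In GRCm39 coordinates Cd28 (60755959 to 60812518, plus strand), Ctla4 (60926159 to 60954991, plus strand) and Icos (61017086 to 61039479, plus strand) lie next to one another on chromosome 1, and Pdcd1 lies farther along it (93966027 to 93980278, minus strand). Chromosome 16 holds Tigit (43469230 to 43484509, minus strand), Btla (45044678 to 45078033, plus strand) and Cd96 (45856020 to 45940614, minus strand). Lag3 is on chromosome 6 (124881324 to 124888668, minus strand) and Havcr2 on chromosome 11 (46345762 to 46372082, plus strand). Counts are over all annotated exons, untranslated regions included, and no exon of the 10 genes overlaps an exon of another annotated gene.

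The promoters of the inhibitory receptor genes Ctla4 and Tigit are shown beside those of Havcr2 and Pdcd1, because the forkhead domain of Foxp3 binds sequences built around TGTTT. The sequences are the 250 bases before the annotated start, read 5′ to 3′ on the strand of the gene, from RefSeq on build GRCm38.p6, a different build from the gene positions above, and capitals mark each match to TGTTT on either strand (AAACA where the match is on the other strand). Ctla4 is chr1:60908775-60909024 (plus strand), Tigit chr16:43664185-43664434 (minus), Havcr2 chr11:46454681-46454930 (plus) and Pdcd1 chr1:94052554-94052803 (minus).
Ctla4: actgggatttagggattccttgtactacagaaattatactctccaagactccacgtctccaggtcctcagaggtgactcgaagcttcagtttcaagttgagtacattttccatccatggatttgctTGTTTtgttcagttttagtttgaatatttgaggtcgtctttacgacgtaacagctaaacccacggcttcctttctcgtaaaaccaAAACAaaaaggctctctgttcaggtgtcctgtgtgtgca
Tigit: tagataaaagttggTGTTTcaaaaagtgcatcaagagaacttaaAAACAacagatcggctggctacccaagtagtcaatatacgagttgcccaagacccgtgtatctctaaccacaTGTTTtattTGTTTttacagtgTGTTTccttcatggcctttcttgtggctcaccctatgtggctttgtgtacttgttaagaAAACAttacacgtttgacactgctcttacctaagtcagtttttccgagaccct
Havcr2: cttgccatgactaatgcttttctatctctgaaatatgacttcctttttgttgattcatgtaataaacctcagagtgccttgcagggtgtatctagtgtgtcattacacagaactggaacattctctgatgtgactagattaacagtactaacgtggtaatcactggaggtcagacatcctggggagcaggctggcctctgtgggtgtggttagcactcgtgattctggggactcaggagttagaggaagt
Pdcd1: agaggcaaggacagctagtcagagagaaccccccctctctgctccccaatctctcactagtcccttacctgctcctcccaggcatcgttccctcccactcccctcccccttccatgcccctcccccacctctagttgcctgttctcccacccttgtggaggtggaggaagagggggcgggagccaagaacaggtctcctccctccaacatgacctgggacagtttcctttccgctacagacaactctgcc
The Tigit window held 6 matches, 4 as printed and 2 on the other strand, a number reached or passed by 0.399% of the 32851 promoters in the table. The Ctla4 window held 2 matches, which 18.3% of promoters reach, and the Havcr2 and Pdcd1 windows held none. At least 1 match stood in 46.4% of all promoters. Of the other genes, Cd96 and Btla each had 1 match, and the promoters of Cd28, Icos, Lag3 and Cd226 were not scanned, since the table does not list these genes. These are matches of letters and not sites of binding.

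The libraries were deep and were T cells by their transcripts. The 12 libraries of the adult degron mice held 27753211 to 34029692 read pairs, and totals ran from 33704114 to 55801009 in the 8 infant libraries and from 35097257 to 57419138 in the other 44. Cd4 (316 to 1031 CPM), Cd3e (696 to 2545 CPM) and Foxp3 (44.3 to 817 CPM) were present in all 64 libraries. Nt5e, the gene for CD73, lay between 16.7 and 26.9 CPM in thymic libraries, sorted as negative for that protein. Markers of other cells were low. Summed over each list, B cell markers reached at most 57.7 CPM, CD8 T cell markers 63.4 CPM, myeloid markers 29.7 CPM, NK cell markers 10.1 CPM and double-positive thymocyte markers 8.55 CPM, while Ncr1 stayed at or under 0.427 CPM and Rag1 at or under 0.408 CPM.

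Levels in Treg cells with an intact Foxp3 gene were compared per transcript length, in TPM (counts per base of transcript, scaled to a common total). In resting GFP Treg cells Ctla4 was highest at 666 ± 2.16 TPM (SD, n = 2), followed by Cd96 at 422 ± 25.4 and Icos at 354 ± 6.03. Cd28 (176 ± 2.77 TPM) and Tigit (143 ± 30.2 TPM) came next. Pdcd1 (77.7 ± 36.7 TPM) and Btla (65.8 ± 2.97 TPM) overlapped between libraries, and Cd226 (30.6 ± 2.13 TPM), Lag3 (9.70 ± 3.36 TPM) and Havcr2 (2.7 ± 0.905 TPM) closed the order. The coinhibitory transcripts were therefore at both ends of the scale, with the costimulators Icos and Cd28 between them. In active GFP Treg cells Ctla4 (1222 ± 167 TPM), Icos (978 ± 70.2 TPM) and Tigit (721 ± 202 TPM) were the 3 highest, each apart from the next. Cd96 (368 ± 39.9 TPM), Pdcd1 (329 ± 239 TPM) and Cd28 (201 ± 15.6 TPM) followed, Pdcd1 overlapping both of its neighbours. Btla (66.7 ± 7.78), Lag3 (47.9 ± 15.7), Cd226 (30.9 ± 4.68) and Havcr2 (12.2 ± 1.04) each stood apart, at lower TPM. In thymic Foxp3-AID ROSA26-WT Treg cells the order was different, with Cd96 first at 908 ± 55.7 TPM (SD, n = 3), then Ctla4 at 482 ± 30.7 and Cd28 at 332 ± 25.3, while Lag3 (0.876 ± 0.609 TPM) and Tigit (0.259 ± 0.229 TPM) were close to 0 and Havcr2 had no read pair in any library.

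Most of these genes differed between resting and active cells. The question of the first comparison is how active differ from resting cells in the absence of Foxp3, in untreated minusFoxp3 mice. In that comparison 8 of the 10 genes were called by edgeR (adjusted p under 0.05 over all genes tested), against 13.4% of all 20790 genes, with a median log2 fold change of 1.36 over the 10 and -0.03 over all genes. In bulk libraries such differences cannot be told apart from a change in the number of cells of a kind that make the transcript. Tigit read 3.87 and 1.36 CPM in the 2 resting libraries and 175 and 123 CPM in the 2 active libraries (log2 fold change 5.83, SE 0.68, edgeR adjusted p = 7.23e-07). Lag3 rose from 8.61 and 11 to 118 and 145 CPM (log2 fold change 3.74, SE 0.48, edgeR adjusted p = 2.79e-06). Havcr2 had no read pair in either resting library and 41.6 and 55.8 CPM in the active ones, at least 1560-fold higher against a floor of 3 read pairs over the group (edgeR adjusted p = 1.42e-06). No resting library reached any active one for these 3 inhibitory receptors. Icos, the costimulator, rose from 229 and 118 to 1038 and 643 CPM (log2 fold change 2.28, SE 0.38, edgeR adjusted p = 0.000101). Ctla4 rose from 388 and 284 to 998 and 831 CPM (log2 fold change 1.44, SE 0.32, edgeR adjusted p = 0.00215). Cd226, which opposes TIGIT, rose from 80.5 and 89.6 to 198 and 214 CPM (log2 fold change 1.27, SE 0.37, edgeR adjusted p = 0.0197). So costimulatory as well as inhibitory receptors were higher in active cells. Cd96 went the other way, from 309.8 and 346 to 191 and 175 CPM (log2 fold change -0.84, SE 0.19, edgeR adjusted p = 0.00268), as did Btla, from 69.8 and 82.2 to 30.2 and 34.5 CPM (log2 fold change -1.24, SE 0.32, edgeR adjusted p = 0.00785). Cd28 (log2 fold change 0.22, edgeR adjusted p = 0.503) and Pdcd1 (0.81, 0.198) were not called. The Cd226 call was lost without any 1 of the 4 libraries, at an edgeR adjusted p of 0.0511 and 0.0960 without the first and second active and 0.154 and 0.0681 without the first and second resting library (range over its alternatives 1.92e-07 to 0.154). The Btla call was lost without the first active (0.0782) or the second resting library (0.0587, range 1.63e-05 to 0.0782), and that of Cd96 with only the 4 libraries compared in the fit (0.0562, range 0.000931 to 0.0562).

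Between active and resting GFP Treg cells, which have Foxp3, 4 of the 10 genes were called by edgeR, against 3.12% of all genes, all of them higher in active cells, with a median log2 fold change of 1.06 over the 10 and 0.00 over all genes. Tigit read 53.5 and 39.7 CPM in resting and 258 and 182 CPM in active libraries (log2 fold change 2.22, SE 0.57, edgeR adjusted p = 0.0266). Lag3 rose from 9.04 and 5.50 to 40.4 and 26.6 CPM (log2 fold change 2.18, SE 0.45, edgeR adjusted p = 0.00592), and Icos from 426 and 437 to 1034 and 1208 CPM (log2 fold change 1.36, SE 0.37, edgeR adjusted p = 0.0403). Pdcd1 read 71.2 and 35.6 CPM in resting and 313 and 106 CPM in active libraries (log2 fold change 1.95, SE 0.40, edgeR adjusted p = 0.00557). The 2 active libraries differ widely for Pdcd1, and without the first of them its edgeR adjusted p was 0.439, while without the second resting library it was 0.178 and with only the 4 libraries compared 0.139 (range over its alternatives 1.26e-14 to 0.439). The other calls also needed particular libraries. Without the first active library the adjusted p was 0.249 for Tigit, 0.111 for Lag3 and 0.165 for Icos, and without the second active library it was 0.155 for Icos. Without the first resting library it was 0.126 for Tigit and 0.207 for Icos, and without the second 0.267, 0.241 and, for Lag3, 0.160. Over all alternatives the ranges were 2.94e-18 to 0.267 for Tigit, 5.55e-16 to 0.160 for Lag3 and 2.10e-10 to 0.241 for Icos. Ctla4 was 552 ± 2.81 CPM (SD, n = 2) in resting and 952 ± 166 CPM (SD, n = 2) in active cells and was not called (edgeR adjusted p = 0.227).

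Active Treg cells of spleen and lymph nodes and CD73-negative thymic Treg cells, both from Foxp3-AID ROSA26-WT mice given 5-ph-IAA, differed in tissue as well as in state. Of the 10 genes 8 were called by edgeR, against 23% of all 14769 genes, with a median log2 fold change of 1.15 over the 10 and 0.03 over all genes. Tigit read 0.106, 0.134 and 0 CPM in the 3 thymic libraries, 7 read pairs in all, and 129, 136 and 132 CPM in the 3 active libraries, a ratio of 1649 of the summed counts (95% counting interval 800.0 to 4102, edgeR adjusted p = 2.23e-07). Havcr2 had no read pair in the thymic libraries and 37.1, 60.8 and 91.2 CPM in the active ones, at least 1866-fold higher against a floor of 3 read pairs over the group (edgeR adjusted p = 6.74e-06). Lag3 rose from 0.142, 0.970 and 0.758 to 165, 183 and 213 CPM (log2 fold change 8.30, SE 0.57, edgeR adjusted p = 8.25e-07). These 3 receptors were thus near 0 in thymic and abundant in active cells. Icos read 162, 222 and 179 CPM in thymic and 1450.4, 1179 and 1148 CPM in active libraries (log2 fold change 2.84, SE 0.16, edgeR adjusted p = 2.17e-07), and Ctla4 371, 403 and 366 against 942, 1126 and 1141 CPM (log2 fold change 1.58, SE 0.12, edgeR adjusted p = 1.38e-06). Pdcd1 (139.5 ± 17.9 CPM (SD, n = 3) against 216 ± 9.38 CPM (SD, n = 3), edgeR adjusted p = 0.00127) and Cd226 (77.4 ± 5.22 CPM (SD, n = 3) against 112 ± 13.2 CPM (SD, n = 3), edgeR adjusted p = 0.00188) were higher in active cells by less. Cd96 was the 1 gene that was lower in active cells, at 722, 633 and 659.7 CPM in thymic and 291, 267 and 203 CPM in active libraries (log2 fold change -1.31, SE 0.16, edgeR adjusted p = 9.78e-05). Cd28 (687 ± 45.8 CPM (SD, n = 3) and 741 ± 165 CPM (SD, n = 3)) and Btla (59.0 ± 3.99 CPM (SD, n = 3) and 65.9 ± 7.02 CPM (SD, n = 3)) were not called, at edgeR adjusted p values of 0.415 and 0.440. With the genotypes taken from the sample records, Pdcd1 was not called (edgeR adjusted p = 0.218, range over its alternatives 1.15e-06 to 0.218).

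**Figure D1:**
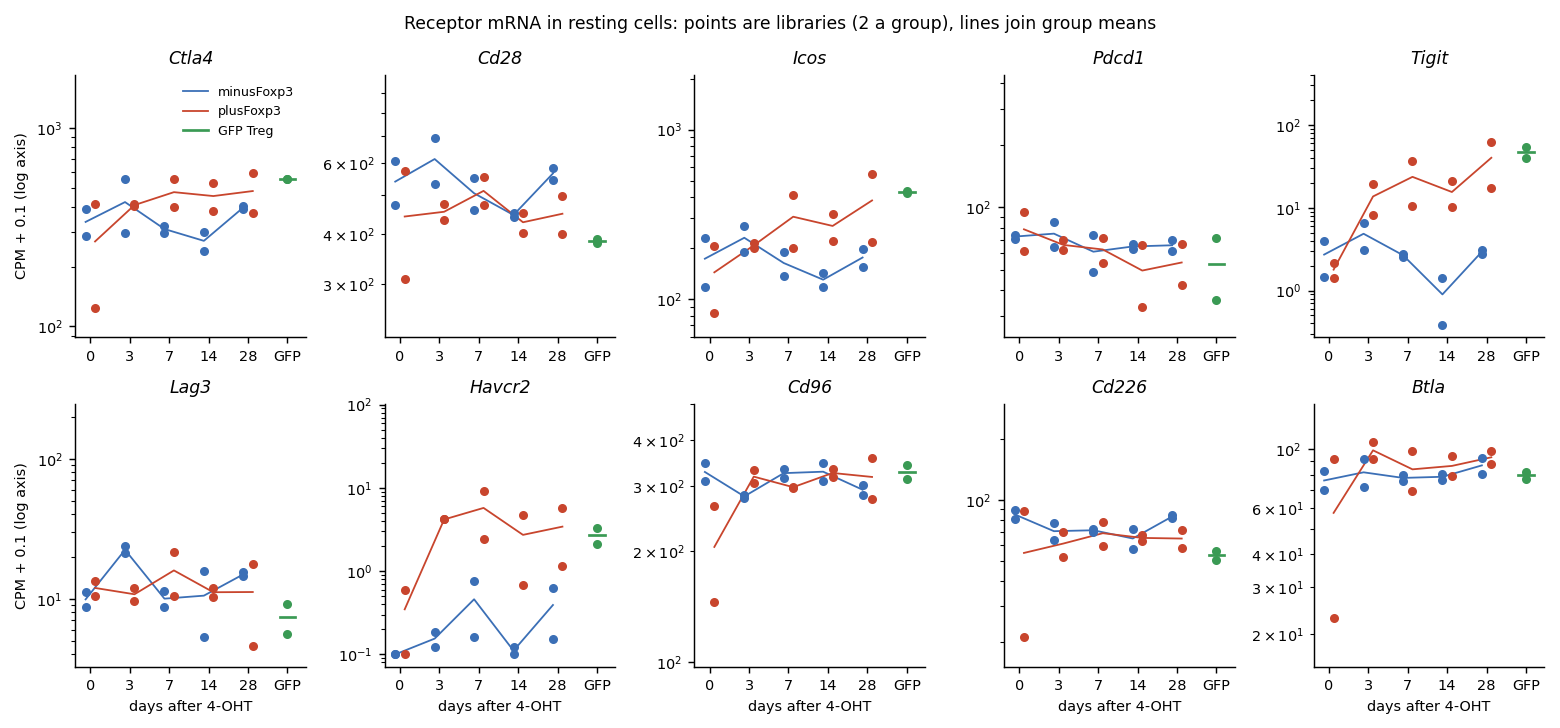
CPM of the 10 receptor genes in resting cells, with 1 panel per gene, by day after 4-hydroxytamoxifen (day 0 is untreated) and in GFP Treg cells. Points are libraries, 2 per group, lines join group means, and the log axis carries a small added constant, named on it, so that 0 can be shown. Tigit in the treated plusFoxp3 libraries sits between 8.11 and 62.5 CPM, above every minusFoxp3 library.

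In resting cells Tigit rose where Foxp3 was restored, and no other of the 10 genes was called by edgeR with all libraries of the fit. The question is how the receptors differ between plusFoxp3 and minusFoxp3 cells of the same day, and minusFoxp3 values are given before plusFoxp3 values. Tigit read 3.03 and 6.47 CPM in minusFoxp3 and 19.0 and 8.11 CPM in plusFoxp3 libraries on day 3. On day 7 it read 2.69 and 2.45 against 36.7 and 10.3 CPM, on day 14 0.281 and 1.32 against 20.7 and 10.1 CPM, and on day 28 2.68 and 3.00 against 62.5 and 17.4 CPM. On each of the 4 days the plusFoxp3 libraries were above the minusFoxp3 libraries, and on days 7 and 28 the first plusFoxp3 library was over 3 times the second. By edgeR it was called on day 14 (log2 fold change 4.29, SE 0.85, edgeR adjusted p = 0.0467), 1 gene of the 10 against 0.268% of all 20520 genes, and on day 28 (log2 fold change 3.82, SE 0.80, edgeR adjusted p = 0.0320), 1 of 10 against 0.945%. On days 0, 3 and 7 none of the 10 genes was called by edgeR, against 0.00487%, 0.0487% and 0.0585% of all genes, with 2 genes on each day at an unadjusted p under 0.05, beside 10.8%, 11% and 5.71% of all genes. DESeq2 called 0 on day 0, 1 on day 3 (Havcr2) and 1 on day 7 (Tigit). The shares of all genes given here and below are from edgeR. None is given for DESeq2, so its counts of the 10 genes cannot be set against a background. The day 14 call was lost without either minusFoxp3 library (edgeR adjusted p = 0.486 and 0.0733) and without the first plusFoxp3 library (0.28, range over its alternatives 2.64e-27 to 0.486). The day 28 call was lost without the same 3 libraries of that day (0.363, 0.274 and 0.311, range 1.09e-23 to 0.363). With only the 4 libraries of a day in the fit, neither call held (edgeR adjusted p = 0.152 and 0.0947).

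By edgeR, Havcr2 and Icos were not called in resting cells at any day, although their groups were often apart, while DESeq2 called Havcr2 on days 3 and 14. Havcr2 read 0.0228 and 0.0866 CPM in minusFoxp3 and 4.07 and 4.08 CPM in plusFoxp3 libraries on day 3, a ratio of 73.5 of the summed counts (95% counting interval 31.2 to 227.7, from 354 and 5 read pairs). On day 7 it read 0.0636 and 0.655 against 8.98 and 2.32 CPM, on day 14 0.0216 and 0 against 4.67 and 0.580 CPM, and on day 28 0.0526 and 0.531 against 5.59 and 1.06 CPM. The plusFoxp3 libraries were above the minusFoxp3 libraries on each of the 4 days, but the edgeR adjusted p was 0.243, 0.621, 0.177 and 0.402. Icos read 118 and 143 CPM in minusFoxp3 and 319.7 and 221 CPM in plusFoxp3 libraries on day 14 and 197 and 155 against 548 and 216 CPM on day 28 (edgeR adjusted p = 0.472 and 0.421). The library that was high for Tigit on days 7 and 28, the first plusFoxp3 library, was also high for Icos (413 against 199.8 CPM on day 7 and 548 against 216 CPM on day 28). Cd44, a marker of activated T cells, encodes a protein that was also part of the sort gate. On day 28 it was 121 and 98.3 CPM in the first and second plusFoxp3 libraries and 99.2 and 87.7 CPM in the minusFoxp3 libraries. The first plusFoxp3 library had the highest Cd44 of the 4. The part of this marker in the Tigit difference was not tested. Ctla4 in resting cells read 239.5 and 299.8 CPM in minusFoxp3 and 527 and 379.7 CPM in plusFoxp3 libraries on day 14, where the groups did not overlap, and 391 and 403 against 590.0 and 371 CPM on day 28, where they did (edgeR adjusted p = 0.608 and 0.927).

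Of the other resting genes Lag3 differed most, on day 3. It was 29.0 ± 3.37 TPM in minusFoxp3 and 15.0 ± 2.36 TPM in plusFoxp3 cells (SD, n = 2), without overlap. Over the 4 treated days the log2 fold changes of plusFoxp3 against minusFoxp3 ran from -0.37 to 0.01 for Cd28, from -0.35 to 0.02 for Pdcd1, from -0.14 to 0.25 for Cd96, from -0.35 to 0.05 for Cd226, from 0.09 to 0.34 for Btla and from -0.99 to 0.65 for Lag3. None of these was called. In untreated mice, where no Foxp3 was restored, the first of the 2 plusFoxp3 libraries stood apart. It read 123 CPM for Ctla4, 309 CPM for Cd28, 21.0 CPM for Cd226 and 22.8 CPM for Btla, against 412, 574, 88.6 and 91.8 CPM in the second, and it had Cd44 at 44.1 CPM against 91.1 CPM. With the second library left out, edgeR called 5 of the 10 genes on day 0, against 10.2% of all genes, and with the first left out it called none, against 0.00487%.

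GFP Treg cells gave a reference for the restored cells. Against untreated minusFoxp3 cells 2 of the 10 genes were called by edgeR in resting cells, against 2.91% of all genes. Tigit read 3.87 and 1.36 CPM in minusFoxp3 and 53.5 and 39.7 CPM in GFP Treg libraries (log2 fold change 4.18, SE 0.82, edgeR adjusted p = 0.00827). Havcr2 was at 0 in both minusFoxp3 libraries and 1.99 and 3.24 CPM in the GFP Treg libraries, at least 82.1-fold higher against a floor of 3 read pairs over the group (edgeR adjusted p = 0.0428). Both receptors were at low levels in resting cells and still present in each library with Foxp3. The Tigit call was lost without the second minusFoxp3 library (edgeR adjusted p = 0.0909, range over its alternatives 2.43e-28 to 0.0909). The Havcr2 call was lost without the first or second minusFoxp3 (0.247 and 0.164) or GFP Treg library (0.0945 and 0.116, range 2.20e-17 to 0.247) and with genes filtered by filterByExpr (0.0501). Cd44, the activation marker, was 144 and 140.4 CPM in these GFP Treg libraries, above all 20 other resting libraries, and 80.6 and 74.5 CPM in the untreated minusFoxp3 libraries, and its part in the Tigit and Havcr2 differences was not tested. Icos was at 426 and 437 CPM in the GFP Treg libraries and 229 and 118 CPM in the minusFoxp3 libraries, without overlap (edgeR adjusted p = 0.171). Against day 28 plusFoxp3 cells, none of the 10 genes was called by edgeR in resting GFP Treg cells, against 0.0341% of all genes, none had an unadjusted p under 0.05, beside 3.96% of all genes, and DESeq2 called 0. The difference there was 0.24 (SE 0.71) on the log2 scale for Tigit and 0.19 (SE 0.45) for Icos, smaller than its standard error in both. The same GFP Treg and day 28 libraries enter several of these comparisons.

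**Figure D2:**
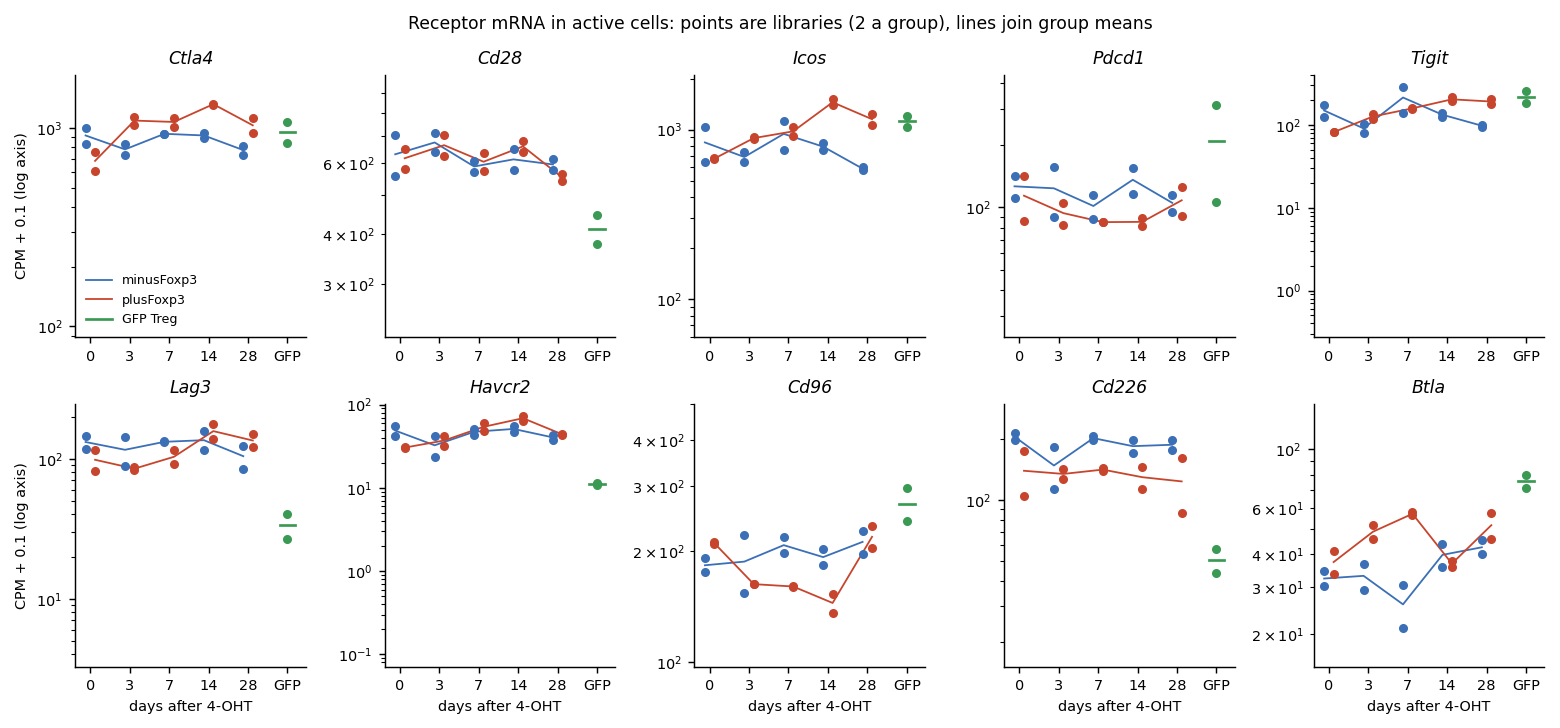
CPM of the 10 receptor genes in active cells, with 1 panel per gene, by day after 4-hydroxytamoxifen and in GFP Treg cells. Points are libraries, 2 per group, lines join group means, and the log axis carries the same small constant. Lag3, Havcr2 and Cd226 in the 2 GFP Treg libraries sit below every other active library.

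In active cells the restored gene was followed by higher Icos and Btla. Icos read 602 and 575 CPM in minusFoxp3 and 1067 and 1236 CPM in plusFoxp3 libraries on day 28 (log2 fold change 0.98, SE 0.20, edgeR adjusted p = 0.0128), 1 gene of the 10 called against 1.85% of all 20776 genes. On day 14 it read 830.1 and 757 against 1390.2 and 1509 CPM and was not called (log2 fold change 0.87, SE 0.20, edgeR adjusted p = 0.0511). On both days the groups were apart, and the plusFoxp3 libraries of day 14 held the 2 highest Icos levels of the silenced-allele experiment. On day 14 none of the 10 genes was called by edgeR, against 0.732% of all genes, with 4 at an unadjusted p under 0.05 (10.2% of all genes) and 2 called by DESeq2 (Icos and Ctla4). Btla, the receptor for HVEM, read 21.0 and 30.6 CPM in minusFoxp3 and 56.0 and 57.6 CPM in plusFoxp3 libraries on day 7 (log2 fold change 1.18, SE 0.19, edgeR adjusted p = 0.00780), 1 of 10 called against 0.568%. On day 14 Btla read 43.8 and 35.6 against 35.8 and 37.8 CPM, so the difference of day 7 was not seen a week later. On days 0 and 3 none was called by edgeR, against 0.00481% and 0.274% of all genes, with 3 of the 10 at an unadjusted p under 0.05 on each day (4.58% and 7.4% of all genes) and 0 called by DESeq2. The Icos call of day 28 was lost without the first or second minusFoxp3 library (edgeR adjusted p = 0.0876 and 0.137) or the second plusFoxp3 library (0.121, range over its alternatives 6.03e-06 to 0.137). The Btla call was lost without the first minusFoxp3 (0.125) or the first or second plusFoxp3 library (0.119 and 0.0560) and with the 4 libraries of that day fitted alone (0.376, range 5.35e-06 to 0.376).

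Ctla4 and Tigit were already abundant in active cells without Foxp3. Ctla4 read 727 and 829.7 CPM in minusFoxp3 and 1138 and 1036 CPM in plusFoxp3 libraries on day 3, 931 and 934 against 1013 and 1126 CPM on day 7, 888 and 942 against 1324 and 1305 CPM on day 14 and 732 and 813 against 937 and 1122 CPM on day 28. On each day the 2 plusFoxp3 libraries were above the 2 minusFoxp3 libraries, by log2 fold changes of 0.24 to 0.54, and the lowest edgeR adjusted p was 0.150, on day 14. Before treatment the order was the other way, with 998 and 831 CPM in minusFoxp3 and 605 and 757 CPM in plusFoxp3 libraries (edgeR adjusted p = 0.999). Tigit read 94.6 and 101 CPM in minusFoxp3 and 179 and 204 CPM in plusFoxp3 libraries on day 28 (log2 fold change 0.98, SE 0.26, edgeR adjusted p = 0.0731), apart but not called. On day 7 it read 289.7 and 138 against 155 and 162 CPM, and the spread of the minusFoxp3 libraries was wider than the difference. The log2 fold change of Tigit was thus 0.98 in active and 3.82 in resting cells on day 28. A test of that difference between states (an interaction term in a fit of all 44 libraries) gave -2.84 on the log2 scale with an edgeR adjusted p of 0.341. In it none of the 10 genes was called by edgeR, against 0.0818% of all genes, with 2 at an unadjusted p under 0.05 (5.58% of all genes) and 0 called by DESeq2.

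Active GFP Treg cells stood further from cells without Foxp3. Against untreated minusFoxp3 cells 6 of the 10 genes were called by edgeR, against 10% of all genes, with a median log2 fold change of 0.26 over the 10 and 0.00 over all genes. Lag3 fell from 118 and 145 CPM in minusFoxp3 to 40.4 and 26.6 CPM in GFP Treg libraries (log2 fold change -1.95, SE 0.27, edgeR adjusted p = 0.000107). Havcr2 fell from 41.6 and 55.8 to 11.4 and 10.7 CPM (log2 fold change -2.12, SE 0.26, edgeR adjusted p = 3.82e-05), and Cd226 from 198 and 214 to 43.8 and 57.3 CPM (log2 fold change -2.0, SE 0.30, edgeR adjusted p = 0.000269). For all 3, an MHC class II receptor, TIM-3 and the activating partner of TIGIT, the groups were well apart. Cd28 fell from 705 and 558 to 378 and 445 CPM (log2 fold change -0.59, SE 0.13, edgeR adjusted p = 0.00777). Btla rose from 30.2 and 34.5 to 79.6 and 71.3 CPM (log2 fold change 1.25, SE 0.19, edgeR adjusted p = 0.000360) and Cd96 from 191 and 175 to 241 and 297 CPM (log2 fold change 0.58, SE 0.18, edgeR adjusted p = 0.0464). The calls of Lag3, Havcr2, Cd226 and Btla held under every alternative tried. Cd28 lost its call without the first minusFoxp3 (edgeR adjusted p = 0.106) or first GFP Treg library (0.0975, range over its alternatives 0.000179 to 0.106). Cd96 lost its call without the first or second minusFoxp3 (0.171 and 0.222) or GFP Treg library (0.0673 and 0.331, range 0.0227 to 0.331). With other count filters (0.0627 by filterByExpr, 0.0677 with none) Cd96 was not called, nor with only the 4 libraries compared in the fit (0.113), where Cd28 also lost its call (edgeR adjusted p = 0.0997). Ctla4, Icos, Pdcd1 and Tigit were not called, with log2 fold changes of 0.08, 0.44, 0.76 and 0.59.

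On day 28 Lag3, Havcr2 and Cd226 were higher in active restored cells than in active GFP Treg cells. These 3 were the genes called by edgeR between active GFP Treg cells and day 28 plusFoxp3 cells, 3 of 10 against 2.01% of all genes. Lag3 was 120.4 and 149 CPM in the plusFoxp3 and 40.4 and 26.6 CPM in the GFP Treg libraries (log2 fold change -2.01, SE 0.27, edgeR adjusted p = 0.000326). Havcr2 was 43.4 and 44.2 against 11.4 and 10.7 CPM (log2 fold change -1.99, SE 0.26, edgeR adjusted p = 0.000281), and Cd226 162 and 85.9 against 43.8 and 57.3 CPM (log2 fold change -1.30, SE 0.30, edgeR adjusted p = 0.0295). The 2 plusFoxp3 libraries differed widely for Cd226, and its call was lost without the first of them (edgeR adjusted p = 0.553) or the first or second GFP Treg library (0.323 and 0.0752) and with only the 4 libraries compared (0.168, range over its alternatives 6.68e-08 to 0.553). GFP Treg cells also carried another Foxp3 allele than the restored cells, and allele and Foxp3 history cannot be told apart in this comparison. Against active minusFoxp3 cells of the same day, Cd226 was lower in plusFoxp3 cells on day 28 (71.9 ± 31.2 against 114 ± 7.80 TPM, SD, n = 2). It was also lower on day 7 (87.4 ± 1.23 against 115 ± 10.3 TPM) and day 14 (74.6 ± 12.0 against 113 ± 14.0 TPM). On day 3 the spread was wider than the difference (80.8 ± 9.52 against 86.0 ± 32.6 TPM). Cd226 was not called by edgeR on any of these days.

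**Figure D3:**
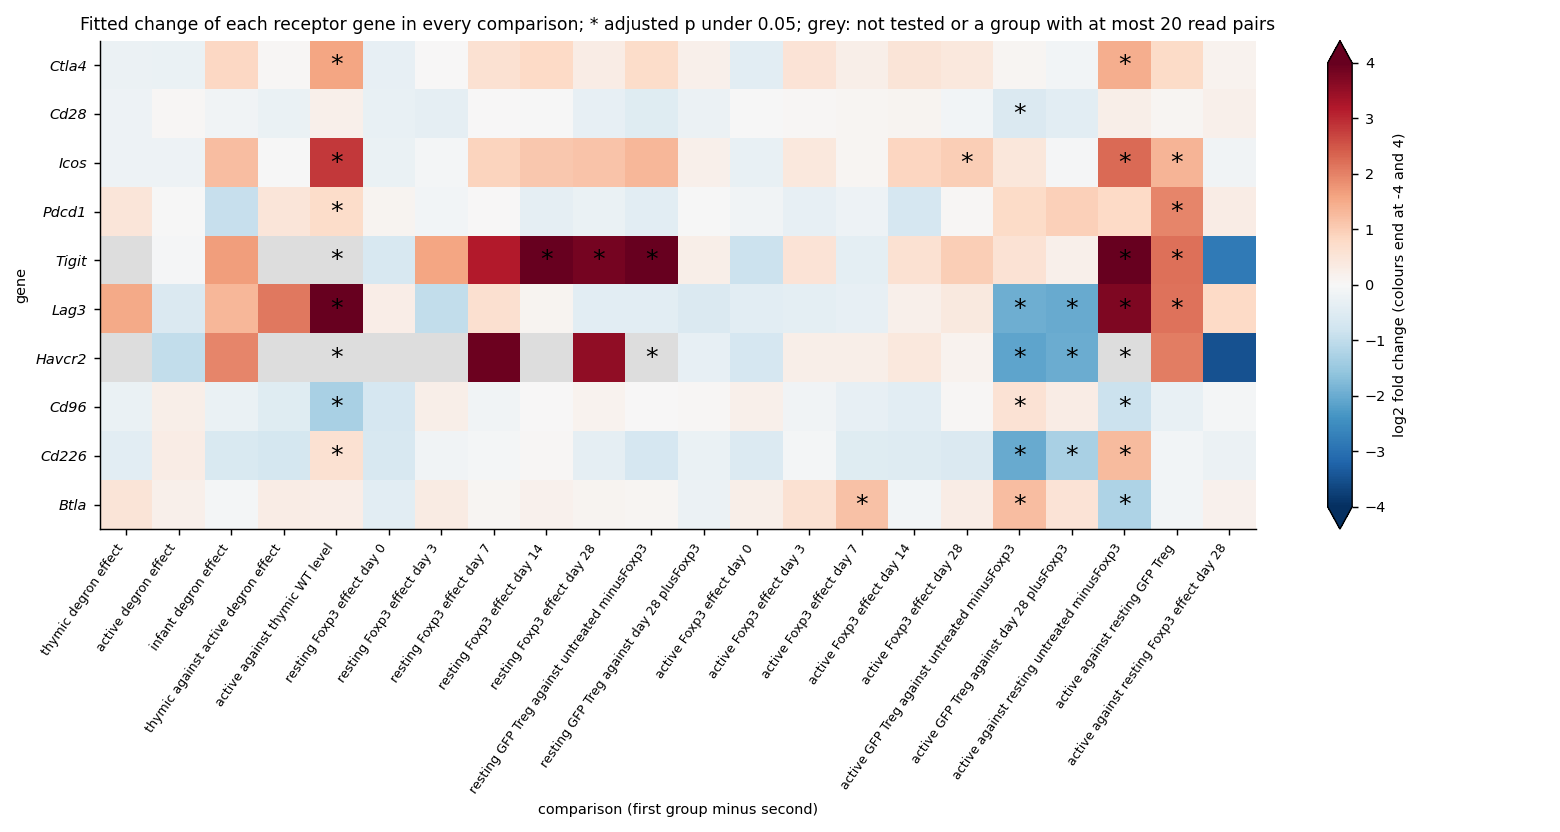
Log2 fold changes of the 10 receptor genes (rows) in each comparison, the 2 tests of a difference between effects included (columns), from the edgeR fits. Colour gives the fold change, a star marks a call, and grey cells were not tested or had at most 20 read pairs in a group, so that a reader sees Tigit called in 6 comparisons, Icos in 4 and Cd28 in 1.

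Because receptors of a pair compete for ligand, the ratio of their levels per length was followed within each library, as a description with no test. The ratio of Ctla4 to Cd28 lay between 1.05 and 2.08 in the 12 resting libraries without functional Foxp3 (median 1.69) and between 2.22 and 3.12 in the 8 treated resting plusFoxp3 libraries (median 2.47), without overlap. In active cells it lay between 2.68 and 4.31 in the 12 libraries without functional Foxp3 and between 4.23 and 5.46 in the 8 treated plusFoxp3 libraries, and the highest value of the series was 6.32. The ratio of Tigit to Cd226 lay between 0.0260 and 0.448 in resting libraries without functional Foxp3 and between 0.828 and 4.70 in treated resting plusFoxp3 libraries. In active cells it lay between 2.31 and 7.46 without functional Foxp3 and between 4.46 and 12.6 in treated plusFoxp3 libraries, and it reached 31.3 in an active GFP Treg library. Both ratios were therefore higher with Foxp3 in resting cells, and in active cells the ranges overlapped. The ratio of Ctla4 to Icos, the neighbour that costimulates, went the other way, with a median of 2.98 in resting libraries without functional Foxp3 and 2.53 in treated resting plusFoxp3 libraries, the ranges overlapping (2.18 to 3.83 and 1.59 to 2.98). In the adult degron experiment Ctla4 to Cd28 ran from 1.18 to 1.64 in the 6 thymic libraries and from 2.66 to 4.64 in the 6 active libraries.

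**Figure D4:**
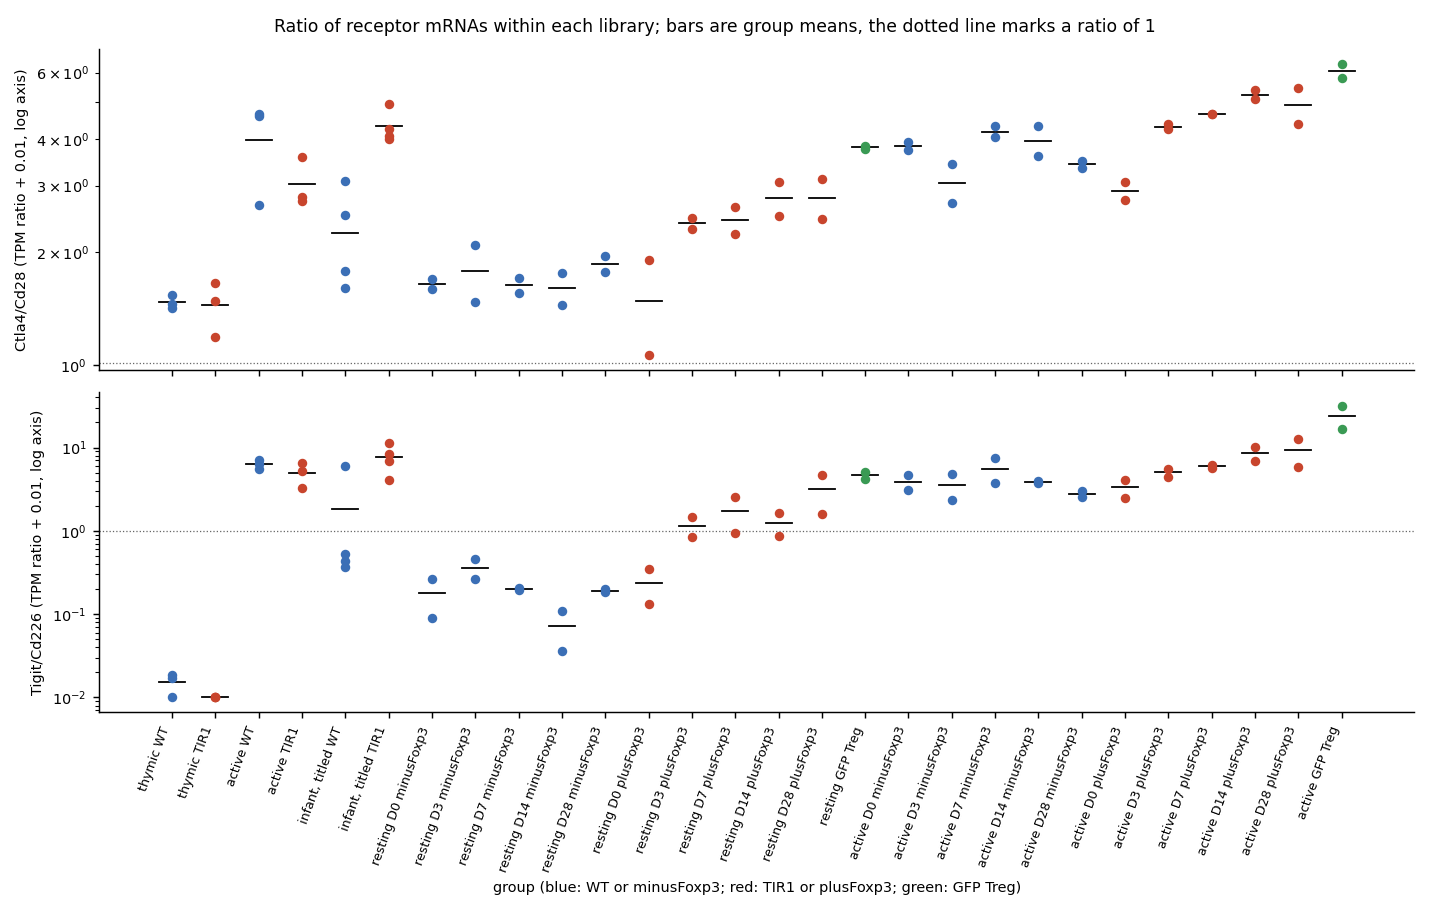
Ratio of Ctla4 to Cd28 and of Tigit to Cd226, from TPM, in each library by group, on a log axis with the small added constant named on it. Points are libraries and bars are group means. The treated resting plusFoxp3 libraries sit above all resting libraries without functional Foxp3 in both ratios.

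In adult Treg cells no receptor gene was called by edgeR between mice with and without TIR1 after 7 days of 5-ph-IAA. In thymic Treg cells none of the 8 genes tested was called by edgeR (Tigit and Havcr2 were too low to test), against 0% of all 14245 genes, with 6 of the 8 at an unadjusted p under 0.05 (7.37% of all genes) and 1 called by DESeq2 (Cd96). In active Treg cells none of the 10 was called by edgeR, against 0% of all 14554 genes, with 2 at an unadjusted p under 0.05 (4.62% of all genes) and 0 called by DESeq2. The median log2 fold change was -0.20 over the 8 thymic and -0.02 over the 10 active genes, and 0.00 and -0.01 over all genes. Cd96 read 722, 633 and 659.7 CPM in the 3 thymic WT and 537, 589 and 567 CPM in the 3 thymic TIR1 libraries, and the 2 groups did not overlap (log2 fold change -0.25, SE 0.07, edgeR adjusted p = 0.532). Cd226 read 79.2, 81.5 and 71.5 against 57.5, 58.0 and 59.3 CPM, again without overlap (log2 fold change -0.41, SE 0.12, edgeR adjusted p = 0.532). Pdcd1 read 121, 141 and 157 against 228, 184 and 171 CPM, with every TIR1 library above every WT library (log2 fold change 0.48, SE 0.14, edgeR adjusted p = 0.532). Ctla4 was also apart, at 371, 403 and 366 CPM in WT and 299.6, 324 and 352 CPM in TIR1 libraries (log2 fold change -0.23, SE 0.08, edgeR adjusted p = 0.633). For Btla, Cd28, Icos and Lag3 the 2 groups overlapped, with edgeR adjusted p values of 0.645, 0.674, 0.800 and 0.850.

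In active adult Treg cells the 2 genes at an unadjusted p under 0.05 were the inhibitory receptors Lag3 and Havcr2. Lag3 read 165, 183 and 213 CPM in WT and 131, 101 and 148 CPM in TIR1 libraries (log2 fold change -0.59, SE 0.18, edgeR adjusted p = 1.00). Havcr2 read 37.1, 60.8 and 91.2 against 34.5, 23.1 and 39.6 CPM (log2 fold change -0.99, SE 0.34, edgeR adjusted p = 1.00). Lag3 was lower in each TIR1 than in each WT library, whereas Havcr2 overlapped. Tigit read 129, 136 and 132 against 139, 88.1 and 167 CPM, and the difference of -0.04 on the log2 scale was well inside the spread of the TIR1 libraries. Ctla4 was 1069.7 ± 111 CPM (SD, n = 3) in WT and 900.0 ± 104 CPM (SD, n = 3) in TIR1 libraries, and Icos 1259 ± 166 CPM (SD, n = 3) and 1130.5 ± 184 CPM (SD, n = 3), neither of them called. Cd226 read 108, 101 and 127 CPM in WT and 142, 143 and 136 CPM in TIR1 libraries (log2 fold change 0.30, SE 0.14, edgeR adjusted p = 1.00), higher in TIR1 where it was lower in the thymus. The difference between thymic and active effects was tested as an interaction over the 12 libraries. None of the 10 genes was called in it by edgeR, against 0% of all 14769 genes, with 4 at an unadjusted p under 0.05 (6.66% of all genes) and 1 called by DESeq2, which was Cd226 (log2 difference -0.71, SE 0.16, edgeR adjusted p = 0.569).

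**Figure D5:**
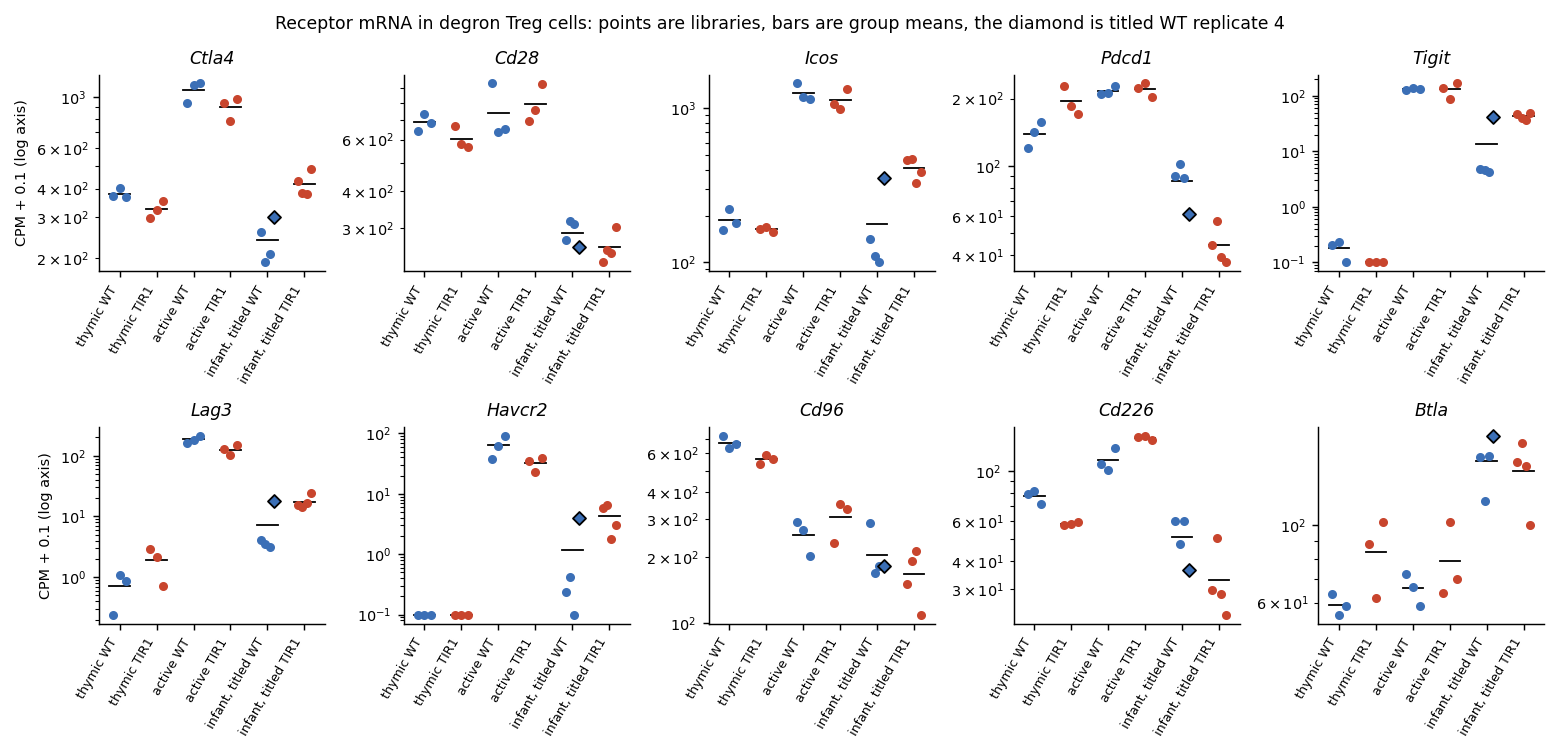
CPM of the 10 receptor genes in thymic and active adult and in infant Treg cells of the degron experiments, with 1 panel per gene. Points are libraries, 3 per adult and 4 per infant group, bars are group means, the diamond is the fourth infant library titled WT, and the log axis carries the same small constant. For Tigit, Icos, Lag3 and Havcr2 that library sits among the 4 libraries titled TIR1.

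In infant Treg cells the 2 titled groups lay apart for several of the genes, except for 1 library. None of the 10 genes was called by edgeR between the titled TIR1 and the titled WT libraries, against 0.0185% of all 16209 genes, with 4 at an unadjusted p under 0.05 (17.4% of all genes) and 2 called by DESeq2 (Ctla4 and Pdcd1). Ctla4 read 429.7, 383, 379 and 488 CPM in the 4 titled TIR1 and 259, 192, 208 and 302 CPM in the 4 titled WT libraries, without overlap (log2 fold change 0.82, SE 0.14, edgeR adjusted p = 0.0653). Pdcd1 read 44.1, 57.0, 39.1 and 37.1 against 89.9, 102, 87.9 and 60.7 CPM, again without overlap and in the other direction (log2 fold change -0.93, SE 0.17, edgeR adjusted p = 0.0727). Tigit read 46.3, 39.1, 36.6 and 49.6 CPM in the titled TIR1 libraries and 4.75, 4.59, 4.07 and 41.5 CPM in the titled WT libraries, so that 3 titled WT libraries were far below and the fourth was among the titled TIR1 libraries. Icos read 461, 469, 329 and 386 against 143, 110.4, 100 and 354 CPM, and Lag3 15.3, 14.1, 16.8 and 23.9 against 3.93, 3.48, 2.98 and 17.9 CPM. Havcr2, at 5.73, 6.35, 1.70 and 2.90 against 0.136, 0.316, 0 and 3.89 CPM, showed the same 3 low libraries and 1 high library. All 4 genes put the fourth titled WT library with the other group.

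Because that library was singled out by these same genes, the values without it describe the other 7 libraries and are no independent test. Without it 7 of the 10 genes were called by edgeR, against 11% of all 16136 genes, with a median log2 fold change of 0.48 over the 10 and 0.00 over all genes. Leaving out any other of the 8 infant libraries left none of the 10 genes called by edgeR. Tigit was 42.9 ± 6.08 CPM (SD, n = 4) in titled TIR1 and 4.47 ± 0.352 CPM (SD, n = 3) in the remaining titled WT libraries (log2 fold change 3.28, SE 0.15, edgeR adjusted p = 6.20e-07). Lag3 was 17.5 ± 4.39 CPM (SD, n = 4) and 3.47 ± 0.475 CPM (SD, n = 3, log2 fold change 2.36, SE 0.22, edgeR adjusted p = 5.56e-05). Icos was 411 ± 66.3 CPM (SD, n = 4) and 117.7 ± 22.3 CPM (SD, n = 3, log2 fold change 1.82, SE 0.14, edgeR adjusted p = 1.97e-05). These 3 and Ctla4 (log2 fold change 0.96, SE 0.12, edgeR adjusted p = 0.000329) and Havcr2 (edgeR adjusted p = 0.00139) were higher in the titled TIR1 libraries. Pdcd1 (log2 fold change -1.06, SE 0.13, edgeR adjusted p = 0.000393) and Cd226 (log2 fold change -0.74, SE 0.21, edgeR adjusted p = 0.0449) were lower there. Cd28, Cd96 and Btla were not called, at edgeR adjusted p values of 0.264, 0.442 and 0.990. Over all alternatives the adjusted p ran from 1.14e-05 to 0.226 for Ctla4 and from 6.39e-05 to 0.226 for Pdcd1. The genotype fields of these libraries disagree with their titles and header names. The genes therefore separate 2 sets of libraries on whose genotype the labels conflict (the Il2ra values are given above). Cd44 ran from 50.8 to 69.7 CPM over the 8 infant libraries, with the fourth titled WT library at 61.4 CPM, inside that range, and Foxp3 read 347, 321, 373 and 367 CPM in titled TIR1 and 361, 424, 402 and 297 CPM in titled WT libraries.

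Other genes of the same pathways were counted on lists of 12 ligands and partners, 10 other inhibitory receptors and 16 downstream signalling genes. None of them was called by edgeR in the thymic, active or infant degron comparison. Without the fourth infant library titled WT, 4 ligands and partners rose and 2 fell of 11 tested, 2 of the 10 other inhibitory receptors rose and 6 fell, and 1 of the 16 downstream genes fell, in titled TIR1 against titled WT libraries, where 11% of all genes were called. In resting cells on day 28 of treatment 1 ligand gene of 11 tested rose, Pdcd1lg2, which encodes PD-L2 (21.2 ± 5.62 against 6.15 ± 0.964 CPM, log2 fold change 1.80, SE 0.32, edgeR adjusted p = 0.0107), and 1 of 16 downstream genes, Trat1, a T cell receptor adaptor that also binds CTLA-4 (165 ± 23.8 against 73.6 ± 7.26 CPM, log2 fold change 1.18, SE 0.24, edgeR adjusted p = 0.0288). Of all genes 0.945% were called there and 1.85% in active cells on day 28, where the same 2 genes were called, Pdcd1lg2 (23.5 ± 4.78 against 8.68 ± 1.74 CPM, log2 fold change 1.44, SE 0.35, edgeR adjusted p = 0.0439) and Trat1 (46.9 ± 25.1 against 11 ± 0.0297 CPM, log2 fold change 2.09, SE 0.40, edgeR adjusted p = 0.00899). With them rose Sh2d1a, the SAP adaptor of SLAM receptors (161 ± 36.3 against 72.8 ± 9.85 CPM, log2 fold change 1.15, SE 0.23, edgeR adjusted p = 0.0107), and, among 10 other inhibitory receptors, Cd160, another HVEM receptor (14.5 ± 7.27 against 1.54 ± 0.133 CPM, log2 fold change 3.23, SE 0.67, edgeR adjusted p = 0.0163), and Klrg1, an inhibitory lectin-like receptor of effector T cells, at 44.3 ± 35.1 against 0.430 CPM (edgeR adjusted p = 0.000395). The medians on day 28 in active cells were 0.54 over the ligands, 0.56 over the other inhibitory receptors and 0.03 over the downstream genes, beside 0.03 over all genes tested. In active GFP Treg against untreated minusFoxp3 cells 5 ligands and partners rose and 1 fell of 11 tested, 5 of the 10 other inhibitory receptors rose, and 3 of the 16 downstream genes rose, where 10% of all genes were called. The ligand that fell was Lgals3, galectin-3, a partner of LAG-3 (10.7 ± 4.98 against 66.1 ± 23.6 CPM, log2 fold change -2.60, SE 0.72, edgeR adjusted p = 0.0275). In resting GFP Treg against untreated minusFoxp3 cells, where 2.91% of all genes were called, Lgals3 rose instead (16.7 ± 0.285 against 1.65 ± 0.321 CPM, log2 fold change 3.35, SE 0.65, edgeR adjusted p = 0.00734). Among the other inhibitory receptors that rose in active GFP Treg cells was Cd200r1, the receptor for CD200 (83.0 ± 14.0 against 14.8 ± 1.82 CPM, log2 fold change 2.51, SE 0.24, edgeR adjusted p = 2.04e-06). Between active and resting untreated minusFoxp3 cells 2 ligands rose and 2 fell, 1 other inhibitory receptor rose and 3 fell, and 2 of the 16 downstream genes rose and 3 fell, where 13.4% of all genes were called. There Pvr, which encodes CD155, the ligand shared by TIGIT, CD96 and CD226, was lower in active cells (21.0 ± 2.19 against 61.0 ± 11.3 CPM, log2 fold change -1.54, SE 0.22, edgeR adjusted p = 1.60e-05), and Trat1 fell (9.0 ± 1.98 against 126 ± 20.7 CPM, log2 fold change -3.80, SE 0.38, edgeR adjusted p = 5.31e-08).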

How the data were processed

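Bulk RNA-seq was made from sorted mouse Treg cells in 64 samples. The authors aligned the reads to mm39 and counted read pairs per gene with featureCounts, without strand, and the deposited values are raw counts per gene. In 20 degron libraries the authors kept primary, non-chimeric pairs of mapping quality at least 30, and the other 44 were counted without that filter, so levels are tested only within each experiment. Members and gene lists were chosen with earlier results of these data known.

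CPM is a count divided by the library total, and TPM also uses the exonic length in the files. Tests used edgeR 4.0.16 in R 4.3.3, with quasi-likelihood F tests, TMM scaling, genes of mean count at least 10 and Benjamini-Hochberg adjustment over all genes tested. A gene was called at an adjusted p under 0.05. Fits held 6 (each adult tissue), 12 (both adult tissues), 8 (infant), 22 (resting or active) or 44 libraries, which share an estimate of spread. The study describes the adult degron and silenced-allele libraries of a group as independent biological replicates. For the infant libraries nothing used here says so, and p-values there measure a spread between libraries that may be technical. The lowest chi-square per gene between replicates of a group was 15.8, so no library was a duplicate of another in its group. Libraries of different groups were not compared in this way. Genes with values were named if they were members, called in a list, or ranked by likeness. Alternatives were DESeq2 1.42.0, other size factors, other count filters, the libraries compared alone, a replicate block, the recorded adult attachment and leaving out each library. Groups at 0 were given a floor of 3 counts, and intervals and floors cover counting error only. Scripts were tested on simulated data. Values of some genes are not reported here.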

Additional observations from a re-analysis of the deposited data

Results flagged for a closer look

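In the infant degron experiment 1 library stood far from the others of its group for 4 receptor genes, by a gap to the nearest library that made up more of the group's range than Dixon's critical share for 4 libraries. The fourth library titled WT read 354 CPM for Icos, 41.5 CPM for Tigit, 17.9 CPM for Lag3 and 3.89 CPM for Havcr2, in each case above the other 3 libraries titled WT and within the range of the 4 libraries titled TIR1. The first library titled WT read 286 CPM for Cd96, above the other 3. Of 20 combinations of gene and infant group examined, 5 were apart in this way, where chance alone would set apart about 1 in 20. The 4 genes come from the same library and are not independent of one another. The groups of 2 and 3 libraries are too small for this check.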

How the results depend on the processing

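The number of the 10 genes called was recomputed under each alternative for 22 comparisons, and no called value turned its direction. For most alternatives the share of all genes called is not given, so these counts have no background to be read against. DESeq2 called 1 gene in the thymic comparison, 2 in the infant, 1 in the thymic against active, 1 in the resting day 3 and 1 in the day 7 comparison, and 2 on resting day 14, active day 14 and active day 28. Without a count filter 1 gene was called in the infant, resting day 0, active day 0 and active day 14 comparisons, 2 on resting day 3 and active day 28 and in the comparison of day 28 effects between states, 3 on resting days 7 and 28, and 4 on resting day 14 and in resting GFP Treg against untreated minusFoxp3 cells, where filterByExpr gave 1. Size factors of the DESeq2 kind gave 1 on active day 14. With only the libraries compared in the fit, 0 genes were called on resting days 14 and 28 and active day 7, 1 on resting day 3 and active day 14, and 2 on active day 28. Same-numbered libraries deviated together in some pairs only (median correlation 0.131 in resting and 0.0440 in active cells, lowest -0.238, highest 0.516 and 0.525), and the labels name no litter, batch or day that a number marks, although the library names list all first before all second replicates, so the pairing is not settled. A replicate block gave 2 genes in the infant comparison, 1 in resting GFP Treg against untreated minusFoxp3 cells (the Havcr2 call was lost), 1 on active day 14 and 2 on active day 28, and changed no other count. Leaving out each library in turn gave 0 to 7 genes in the infant comparison, 0 to 5 on resting day 0, 0 to 1 on resting days 14 and 28, on active day 28 and in resting GFP Treg against untreated minusFoxp3 cells, 0 to 2 on active day 7 and 0 to 3 in active against resting GFP Treg cells. The 7 infant genes were called where 11% of all genes were, and the 5 of resting day 0 where 10.2% were. What caused the changes in these counts was not tested, beyond the smaller number of libraries or genes that an alternative holds. Of 2403 single-gene values under alternatives, 56 lost a call, 60 gained one and all others kept their side of the threshold. Among these others 126 uncalled values had another sign. Of those 126, 54 also shifted by at least their standard error, and the remaining 2233 of the others were counted as unchanged.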

Other observations

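Across the means of 22 silenced-allele and GFP Treg groups, over log2 CPM of 12399 genes, the genes whose pattern was most like that of each receptor were ranked by Pearson's r, as a description. The points share the resting or active split, so a gene that differs between the states is like any other that does. Ctla4 was most like its neighbour Icos (r = 0.984), then Glrx and Vmp1. Tigit was most like Acot7, Morrbid and Pvrig, the last of which encodes another receptor of the nectin family. Lag3 was most like Podnl1, Phactr2 and Maf, and Havcr2 was most like Fam234a and the chemokine receptor gene Ccr2. Pdcd1 was most like Tnfsf11, Dipk1b and Egr2, the last an early target of T cell receptor signalling. Cd28, Cd96, Cd226 and Btla were most like Prg4, Adi1, Trgj2 and Osbpl9.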
